A study of Mus musculus with 23 samples.

Results

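Collagens are the structural proteins of the extracellular matrix, and *Col* genes encode their α chains. All genes whose symbol is *Col*, a number, *a* and a number were taken from the 2 deposited tables of normalized counts. These were 44 genes of 35455 in the table of BRAF V600E and BRAF V600E/PI3Kα H1047R tumor cells, and the 44 genes were also among the 35454 of the table of PGC1α tumor cells. A mean normalized count of 10 was reached by 38 collagens in the first table and by 39 in the second, and only these were tested. By type, 6 are fibrillar chains (*Col1a1*, *Col1a2*, *Col3a1*, *Col5a1*, *Col5a2* and *Col5a3*), 6 are basement membrane chains (*Col4a1* to *Col4a6*) and 32 are others. The fibrillar class is limited to types I, III and V, so that further fibril-forming collagens, such as types II, XI, XXIV and XXVII, count among the others.

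The 23 libraries were made from RNA of flow sorted tdTomato+ lung tumor cells, at 2, 6 or 12 weeks after infection with an adenovirus that expresses CRE from the *Sftpc* promoter, a promoter active in alveolar type 2 (AT2) cells. All mice carried the *Braf* CAT allele on 1 chromosome (label CAT/+), which after CRE expresses BRAF V600E together with tdTomato, so that every group shares BRAF V600E and the reporter. The 6 BRAF libraries carried this allele alone (1, 3 and 2 at 2, 6 and 12 weeks), and the 8 BRAF/PI3K libraries (2, 4 and 2) also carried 1 CRE-activated *Pik3ca* H1047R allele (CAT/+ with HR/+). In a second cohort, all at 12 weeks, 5 BRAF/PGC1α Het and 4 BRAF/PGC1α Null libraries carried 1 or 2 mutant alleles of *Ppargc1a*, the gene of the coactivator PGC1α. The mice were young adults on a mixed background, those taken at 12 weeks had received a lower virus dose, and the study's methods assign individual mice to the harvest groups, but the labels tie no library to a mouse.

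The α chains wind into a triple helix in the endoplasmic reticulum, after prolines and lysines have been hydroxylated. Fibrillar collagens are then secreted, trimmed by propeptidases, assembled into fibrils and cross-linked by lysyl oxidases, and in lung they are made mainly by fibroblasts and other mesenchymal cells. Type IV collagens form the sheet-like network of basement membranes: α1 and α2 chains occur in nearly all of them, and α3, α4 and α5 chains occur together in a few, among them the alveolar and glomerular ones, and in the alveolus the epithelium makes them. Other collagens are microfibrillar (type VI), transmembrane (types XIII, XVII, XXIII and XXV), fibril-associated (types IX, XII, XIV and others) or carry long sugar chains in basement membrane zones (types XV and XVIII).

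Summed normalized counts were 16433820.4 to 20287296 in the first table and 7115753 to 9159567 in the second, and the depth in reads is unknown. The 11 AT2 markers, led by the surfactant gene *Sftpc*, summed to 500132 to 1412860 normalized counts in BRAF and 61299.8 to 1052480 in BRAF/PI3K libraries, the lowest sums being 61299.8 and 129452 in both BRAF/PI3K libraries at 2 weeks. In those libraries the AT2 sums lay below the sums of 9 alveolar type 1 markers (146134 to 155374) and of 18 endothelial markers (198825 to 233360). In BRAF/PI3K replicate 1 at 6 weeks the AT2 sum, 244689, lay below the endothelial sum, 315865. These sums were not divided by gene length. Of the endothelial markers, *Calcrl* and *Ptprb* had 95240 and 62941 in BRAF/PI3K replicate 1 at 2 weeks and 67779 and 57219 in replicate 2. In BRAF/PI3K replicate 1 at 6 weeks they had 130719 and 80444. The order of the sums thus leans on few genes and does not show which cells gave more RNA. Markers of other cells were also counted: none of the fibroblast, endothelial, macrophage, lymphocyte or mesothelial markers found in the tables was listed at 0 in every library. This is a weak criterion, which 27332 of 35455 genes met in the first table and 33095 of 35454 in the second. It cannot show whether other cells were present. The sex labels of the 2 week libraries differ by genotype (BRAF female, BRAF/PI3K male), and the effects of sex and of PI3Kα cannot be told apart in that week. *Kdm5d*, a gene of the Y chromosome, went against the labels in both BRAF/PI3K libraries at 12 weeks, with 502 for the male label and 4728 for the female label, and pooled results are also given without both.

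The reference annotation places several type IV collagen genes in head-to-head pairs. *Col4a1* (chr8:11198423-11312826, minus strand, GRCm38) and *Col4a2* (chr8:11312805-11449287, plus strand) are transcribed in opposite directions from 5′ ends 21 bases apart. These 2 genes overlap at their 5′ ends. The 5′ ends of *Col4a3* (chr1:82586921-82722059, plus strand) and *Col4a4* (chr1:82448423-82586849, minus strand) are 72 bases apart, and those of *Col4a5* and *Col4a6* on chromosome X are 1309 bases apart, both without overlap. The windows printed next show both sides of the *Col4a1* and *Col4a2* start, the *Col4a4* start that also spans the 5′ end of *Col4a3*, and, for comparison, the starts of the fibrillar genes *Col1a2* and *Col3a1*, which each varied together with *Col1a1* across the 14 libraries of the first cohort. Each runs from 250 bases before to 50 bases after the gene's start in RefSeq (GRCm38.p6), 5′ to 3′ on the gene's own strand, and capitals mark matches on either strand to TATAAA (the TATA box), CCAAT (the CCAAT box) and GGGCGG (the GC box).
*Col4a1* promoter, chr8:11312777-11313076, minus strand: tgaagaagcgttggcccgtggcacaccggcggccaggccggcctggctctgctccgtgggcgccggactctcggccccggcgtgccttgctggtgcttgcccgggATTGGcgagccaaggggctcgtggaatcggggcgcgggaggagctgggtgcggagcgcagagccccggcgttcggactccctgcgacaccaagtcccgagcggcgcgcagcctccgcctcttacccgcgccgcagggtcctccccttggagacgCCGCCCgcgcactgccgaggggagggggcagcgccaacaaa
*Col4a2* promoter, chr8:11312555-11312854, plus strand: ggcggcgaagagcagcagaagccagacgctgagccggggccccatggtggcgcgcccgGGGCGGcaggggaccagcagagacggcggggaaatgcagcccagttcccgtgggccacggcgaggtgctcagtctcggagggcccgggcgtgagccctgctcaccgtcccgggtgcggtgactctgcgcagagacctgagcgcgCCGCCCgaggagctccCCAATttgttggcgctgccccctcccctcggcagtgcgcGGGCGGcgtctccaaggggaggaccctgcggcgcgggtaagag
*Col4a4* promoter, chr1:82586800-82587099, minus strand: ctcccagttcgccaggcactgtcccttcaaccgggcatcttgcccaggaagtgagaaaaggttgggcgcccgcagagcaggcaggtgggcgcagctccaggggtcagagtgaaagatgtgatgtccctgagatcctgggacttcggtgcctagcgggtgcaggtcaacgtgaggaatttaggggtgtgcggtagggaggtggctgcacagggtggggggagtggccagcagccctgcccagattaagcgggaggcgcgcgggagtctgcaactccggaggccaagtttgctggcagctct
*Col1a2* promoter, chr6:4505368-4505667, plus strand: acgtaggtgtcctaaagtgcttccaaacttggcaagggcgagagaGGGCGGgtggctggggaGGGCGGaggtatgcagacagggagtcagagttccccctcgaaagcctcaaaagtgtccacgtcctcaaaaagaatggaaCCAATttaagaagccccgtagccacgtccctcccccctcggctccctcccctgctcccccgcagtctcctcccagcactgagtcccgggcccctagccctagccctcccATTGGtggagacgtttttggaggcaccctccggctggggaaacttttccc
*Col3a1* promoter, chr1:45311288-45311587, plus strand: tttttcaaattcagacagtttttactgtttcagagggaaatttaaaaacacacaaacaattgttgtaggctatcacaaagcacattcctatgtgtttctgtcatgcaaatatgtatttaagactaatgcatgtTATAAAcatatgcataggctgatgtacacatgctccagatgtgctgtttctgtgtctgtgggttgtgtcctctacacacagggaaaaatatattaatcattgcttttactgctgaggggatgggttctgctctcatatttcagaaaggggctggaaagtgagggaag
The *Col4a1* and *Col4a2* windows share 78 bases, and their GC content was 74% and 73.7%, against 37.7% for *Col3a1*. No match overlapped another in these windows, and none was found in that of *Col4a4*. In the 38 windows listed for 35 of the 44 collagens, TATAAA occurred in 5, CCAAT in 13 and GGGCGG in 23. Of all 32851 windows, 13.6%, 37.4% and 35.7% held these motifs.

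The α1, α2 and α3 chains of type IV collagen had the highest levels per length in both cohorts. With mean normalized counts divided by the kilobases of each gene's merged exons, *Col4a2* ranked first (1048 per kb in the BRAF and BRAF/PI3K libraries), then *Col4a1* (713), *Col4a3* (685) and *Col4a4* (316), while *Col4a5* and *Col4a6* stood at ranks 8 and 25. The most abundant fibrillar chain was *Col3a1* (237 per kb), followed by *Col1a2* (207) and *Col1a1* (138), the chains of types III and I. In BRAF libraries alone *Col1a2* (139.99 ± 70.9 per kb) and *Col3a1* (136 ± 70.4, SD, n = 6) differed by less than their SD. Among the others, the microfibrillar chains *Col6a1* (219.9 per kb) and *Col6a3* (178) led, before *Col23a1* (131), a transmembrane collagen. The place of *Col6a3* came from BRAF/PI3K libraries (248 ± 275 per kb, SD, n = 8), and in BRAF libraries it was at 85.1 ± 52.3, below *Col23a1* at 119 ± 53.8 (SD, n = 6). In the PGC1α cohort the first ranks were again *Col4a2* (259 per kb), *Col4a1* (233) and *Col4a3* (69.5), while *Col1a1*, *Col1a2* and *Col3a1* were at 8.55, 7.62 and 6.19 per kb. Neighbouring ranks can differ by less than their spread: in BRAF libraries *Col4a1* was at 629 ± 153 per kb and *Col4a3* at 511 ± 149 (SD, n = 6), and in BRAF/PI3K libraries the order turned, with *Col4a1* at 776 ± 49 and *Col4a3* at 816 ± 535 (SD, n = 8). Part of *Col4a3* (5.65% of its exon bases) lies opposite *C430014B12Rik*, and no source used here says whether strand was used in counting.

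Collagens that did not reach a mean of 10 in the first table were *Col28a1* (6.52 normalized counts), *Col24a1* (6.17), *Col2a1* (4.3), *Col9a2* (2.91), *Col6a4* (2.78) and *Col9a1* (0.143). *Col2a1* and the type IX chains are the collagens of cartilage. All 6 fibrillar, all 6 basement membrane and 26 of 32 other collagens passed. In the PGC1α table the 5 below the minimum were the fibrillar chain *Col5a3* (4.22), *Col8a2* (4.09), *Col13a1* (3.96), *Col9a2* (3.94) and *Col9a1* (9.78), the last just under it. *Col13a1* had a mean of 139 in the first table, and *Col28a1*, *Col24a1*, *Col2a1* and *Col6a4* had 37.3, 14.1, 15.4 and 13.6 in the second. The tables were normalized separately, so that levels were not tested across them.

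All collagens together took 0.106% to 0.393% of a library's normalized counts in the first cohort and 0.061% to 0.0976% in the second. In the first cohort both BRAF/PI3K libraries at 2 weeks had the largest collagen sums, 75099.7 and 72191 normalized counts, against 35891 in the BRAF library of that week. They were followed by BRAF/PI3K replicate 1 at 6 weeks with 51175, whose 3 fellow replicates had 33588, 33828 and 31632. The lowest sum of the first cohort was that of BRAF replicate 2 at 12 weeks, 20873. Among these 14 libraries fibrillar sums spread more than type IV sums: they ran from 1665 to 17129.8, and type IV sums from 16454 to 39946. In the same libraries type IV chains made up 51.3% to 78.8% of all collagen counts, the lowest shares being those of the 3 libraries with the largest sums. In the PGC1α cohort, whose table was normalized separately, collagen sums were 5196 to 7712, fibrillar sums 48.6 to 656 and type IV shares 62.2% to 85.8%.

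**Figure D1:**
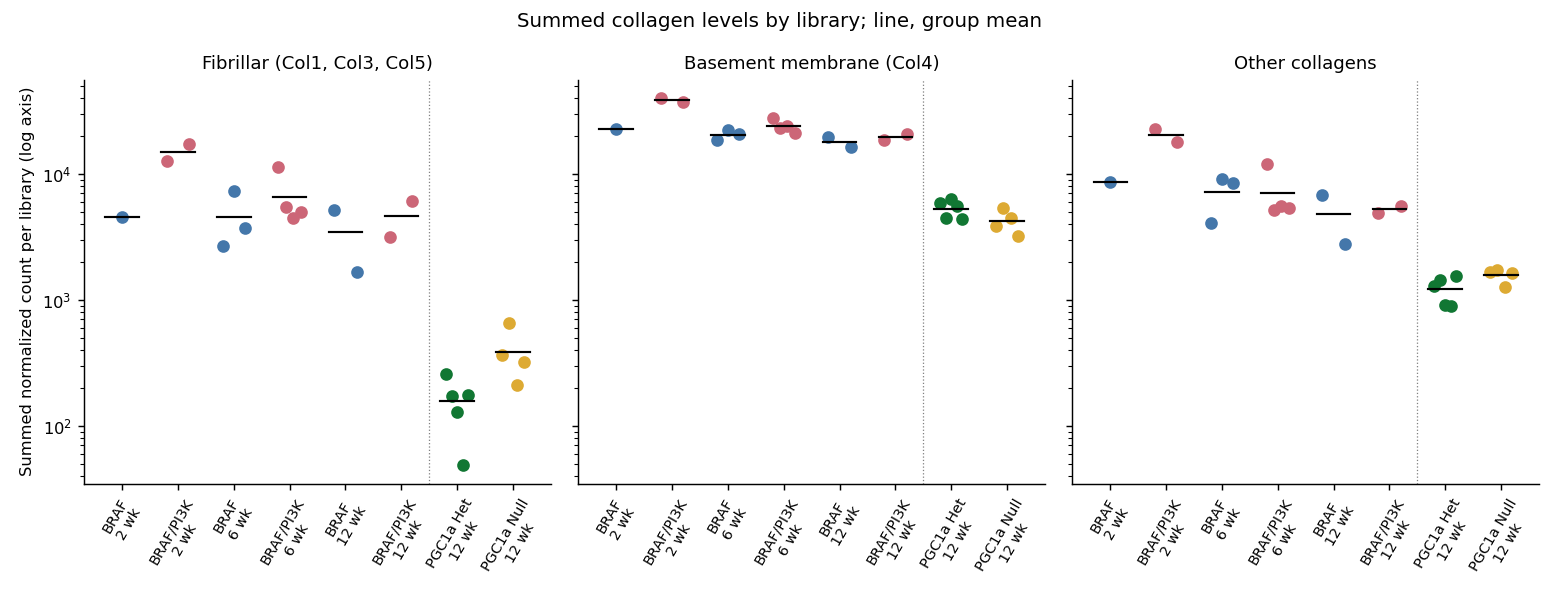
Summed normalized counts of fibrillar, basement membrane and other collagens in each of the 23 libraries (points, log axis) with the mean of each group (lines). The BRAF/PI3K libraries at 2 weeks, at 12585 and 17129.8 fibrillar counts, stand above all others, and the tables on either side of the dotted line were normalized separately.

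The 3 libraries with the largest collagen sums also had the largest sums of fibroblast and mural cell, endothelial and alveolar type 1 (AT1) markers, but not of macrophage or lymphocyte markers. The 16 fibroblast and mural cell markers summed to 74237 and 92602 in the BRAF/PI3K libraries at 2 weeks and to at most 73766 at 6 weeks, against 5179 to 34204 over all BRAF libraries. The 18 endothelial markers summed to 29944 to 315865 in BRAF/PI3K and 17677 to 168993 in BRAF libraries, and the 11 macrophage markers to 2663 to 26707 and 1488 to 6259, the highest macrophage sum being that of a BRAF/PI3K library at 12 weeks. Lymphocyte markers (8) summed to 508 to 1217 and 517 to 1829, and mesothelial markers (4) to 15.2 to 338 and 42.9 to 315. The 9 AT1 markers summed to 146134 to 155374 in the BRAF/PI3K libraries at 2 weeks and 33076 to 97497 in BRAF libraries. In bulk samples a larger number of cells of a type and more RNA per cell cannot be told apart, and the part of these cells in the collagen levels was not tested.

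The comparison of BRAF/PI3K with BRAF tumor cells asks what activated PI3Kα adds to BRAF V600E. No collagen passed an adjusted p of 0.05 with the weeks pooled (limma on log2 of the normalized count + 1, Benjamini-Hochberg over 17558 genes, of which 0.0228% were called). At an unadjusted p under 0.05 stood 5 of 38 collagens, all higher in BRAF/PI3K, where 6.83% of all genes did: *Col3a1*, *Col17a1*, *Col4a2*, *Col1a1* and *Col4a1*. The log2 fold change was positive for 27 of 38 collagens, with a median of 0.18, and for 51.8% of all genes, with a median of 0.0174. It was positive for 5 of 6 fibrillar chains (median 0.61), 6 of 6 basement membrane chains (median 0.25) and 16 of 26 others (median 0.11). The negative fibrillar chain, *Col5a3*, had a mean of 11.3, little above the minimum for testing, which it passed through its BRAF libraries. In the same comparison all 18 endothelial markers were higher (median log2 fold change 0.90, 4 at an unadjusted p under 0.05), as were 10 of 11 macrophage markers (median 0.89, 3) and 10 of 16 fibroblast and mural cell markers (median 0.32, 0), and all 11 AT2 markers were lower (median -1.01, 2). For no collagen were the 6 BRAF and 8 BRAF/PI3K values free of overlap, which was so for 0.211% of all genes. Without the 2 week libraries these medians were 0.28, 0.11 and 0.0324 with 0 calls, and without both BRAF/PI3K libraries at 12 weeks 0.91, 0.32 and 0.30 with 0 calls. By their labels 5 of 6 BRAF and 3 of 8 BRAF/PI3K libraries were from females. *Kdm5d* went against the labels of both BRAF/PI3K libraries at 12 weeks, so that an adjustment by label is uncertain. With sex as a factor in limma 3 collagens had an unadjusted p under 0.05, *Col1a1* (log2 fold change 1.16), *Col3a1* (1.24) and *Col4a2* (0.41), while *Col17a1* was at 1.23 (unadjusted p = 0.0571) and *Col4a1* at 0.37 (unadjusted p = 0.0654), and the median of the other collagens was -0.0196.

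Of the fibrillar collagens, *Col1a1*, the α1 chain of type I collagen, had 867 at 2 weeks, 379, 1159.8 and 382 at 6 weeks and 555 and 177 at 12 weeks in BRAF libraries, in normalized counts. In BRAF/PI3K libraries it had 1453 and 2405 at 2 weeks, 1479, 950.3, 579 and 658 at 6 weeks and 729 and 903 at 12 weeks. BRAF/PI3K values were above those of BRAF at 2 and at 12 weeks and overlapped them at 6 weeks. The pooled means were 1145 ± 612 (SD, n = 8) and 587 ± 364 (SD, n = 6), a log2 fold change of 1.06 ± 0.40 (unadjusted p = 0.0191, adjusted p = 0.637), with a two-sided exact permutation p of 0.033 over all libraries and 0.0206 within weeks.

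*Col3a1*, the only chain of type III collagen, which forms fibrils together with type I, had 1481 at 2 weeks, 636, 2491 and 1028 at 6 weeks and 1643 and 743 at 12 weeks in BRAF libraries. In BRAF/PI3K libraries it had 3945 and 6680.2 at 2 weeks, 4099, 1964, 2114 and 1602 at 6 weeks and 1336 and 2776 at 12 weeks. The order was the same as for *Col1a1* at 2 weeks, while the ranges overlapped at 6 and 12 weeks. Its log2 fold change was 1.16 ± 0.38 (unadjusted p = 0.00736, adjusted p = 0.511), with an exact permutation p of 0.0176, and 0.0143 within weeks. Without the 2 week libraries its fold change by limma was 0.91 (unadjusted p = 0.0294, adjusted p = 0.895).

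*Col1a2*, the α2 chain that joins *Col1a1* products in type I collagen, was at 3204 ± 2243 (SD, n = 8) in BRAF/PI3K and 1739 ± 881 (SD, n = 6) in BRAF libraries, with its highest value in the same BRAF/PI3K library at 2 weeks and its lowest in the same BRAF library at 12 weeks as *Col1a1*. The chains of type V, a minor collagen within type I fibrils, had 32.4 (*Col5a1*), 37.8 (*Col5a2*) and 1.66 (*Col5a3*) normalized counts per kb. *Col5a1* had 102 at 2 weeks, 286, 300.1 and 239.8 at 6 weeks and 194 and 211 at 12 weeks in BRAF libraries, and 337 and 469.8 at 2 weeks, 691, 204, 255 and 209 at 6 weeks and 115 and 234 at 12 weeks in BRAF/PI3K libraries. Its highest value was that of BRAF/PI3K replicate 1 at 6 weeks, and its lowest that of BRAF at 2 weeks. *Col5a2* was at 412 ± 296 (SD, n = 8) in BRAF/PI3K and 296 ± 159.5 (SD, n = 6) in BRAF libraries. *Col5a3* reached at most 23.9, was listed at 0 in 1 BRAF/PI3K library at 2 weeks, and was the fibrillar chain with a negative pooled log2 fold change, -0.69 ± 0.71. Its mean, 11.3 normalized counts, lay little above the minimum for testing. It was at 1.94 ± 1.15 per kb (SD, n = 6) in BRAF and 1.45 ± 1.12 (SD, n = 8) in BRAF/PI3K libraries. Its passing thus leaned on the BRAF libraries, and its negative direction cannot be separated from that.

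The ubiquitous basement membrane chains lay in a narrow range. *Col4a1* had 2641 at 2 weeks, 5329.9, 5641 and 4643 at 6 weeks and 5629 and 4289 at 12 weeks in BRAF libraries. In BRAF/PI3K libraries it had 5647 and 5416 at 2 weeks, 5719.9, 6182, 5957 and 5196 at 6 weeks and 6032 and 6212 at 12 weeks. The BRAF library at 2 weeks was the lowest of all, and the others lay between 4289 and 6212. The log2 fold change was 0.35 ± 0.16 (unadjusted p = 0.0489, adjusted p = 0.729), with an exact permutation p of 0.00766, without the 2 week libraries 0.21 (unadjusted limma p = 0.129) and without the BRAF library of that week alone 0.189. Its head-to-head neighbour *Col4a2*, whose chain is the partner of the α1 chain, was at 7711 ± 1123 (SD, n = 8) in BRAF/PI3K and 5901 ± 885 (SD, n = 6) in BRAF libraries. The log2 fold change of *Col4a2* was 0.39 ± 0.14 (unadjusted p = 0.0122, adjusted p = 0.565), with an exact permutation p of 0.00699. At 6 weeks its 4 BRAF/PI3K values (9032, 8043, 6595 and 6713) lay above its 3 BRAF values (5250.2, 6369.5 and 5729).

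*Col4a3*, a chain of the alveolar and glomerular basement membranes, had 6805 at 2 weeks, 4659.5, 6417 and 5745 at 6 weeks and 3023 and 3888 at 12 weeks in BRAF libraries. In BRAF/PI3K libraries it had 18138 and 13760.4 at 2 weeks, 9279, 4737, 7076 and 5007 at 6 weeks and 2787 and 4278 at 12 weeks. Both BRAF/PI3K values at 2 weeks stood above all other libraries, BRAF/PI3K replicate 1 at 6 weeks came next, and at 12 weeks the genotypes overlapped at lower values. The pooled log2 fold change was 0.48 ± 0.37 (unadjusted p = 0.216, adjusted p = 0.815). It was 0.275 without BRAF/PI3K replicate 1 at 2 weeks and 0.167 without all 2 week libraries. Without both BRAF/PI3K libraries at 12 weeks it was 0.80 (unadjusted p = 0.0299, adjusted p = 0.484 by limma). *Col4a4*, its neighbour and partner, was at 5437 in BRAF and 6022 and 5865 in BRAF/PI3K libraries at 2 weeks. At 6 and 12 weeks all its values lay between 2047 and 3335, with no separation of the genotypes. *Col4a5*, the third chain of that network, was at 1307 ± 589 (SD, n = 8) in BRAF/PI3K and 1141 ± 359.9 (SD, n = 6) in BRAF libraries. *Col4a6*, the least abundant type IV chain per kb (9.46), was at 80.0 ± 39.5 (SD, n = 8) and 69.3 ± 34.6 (SD, n = 6), and for both chains the genotypes overlapped.

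**Figure D2:**
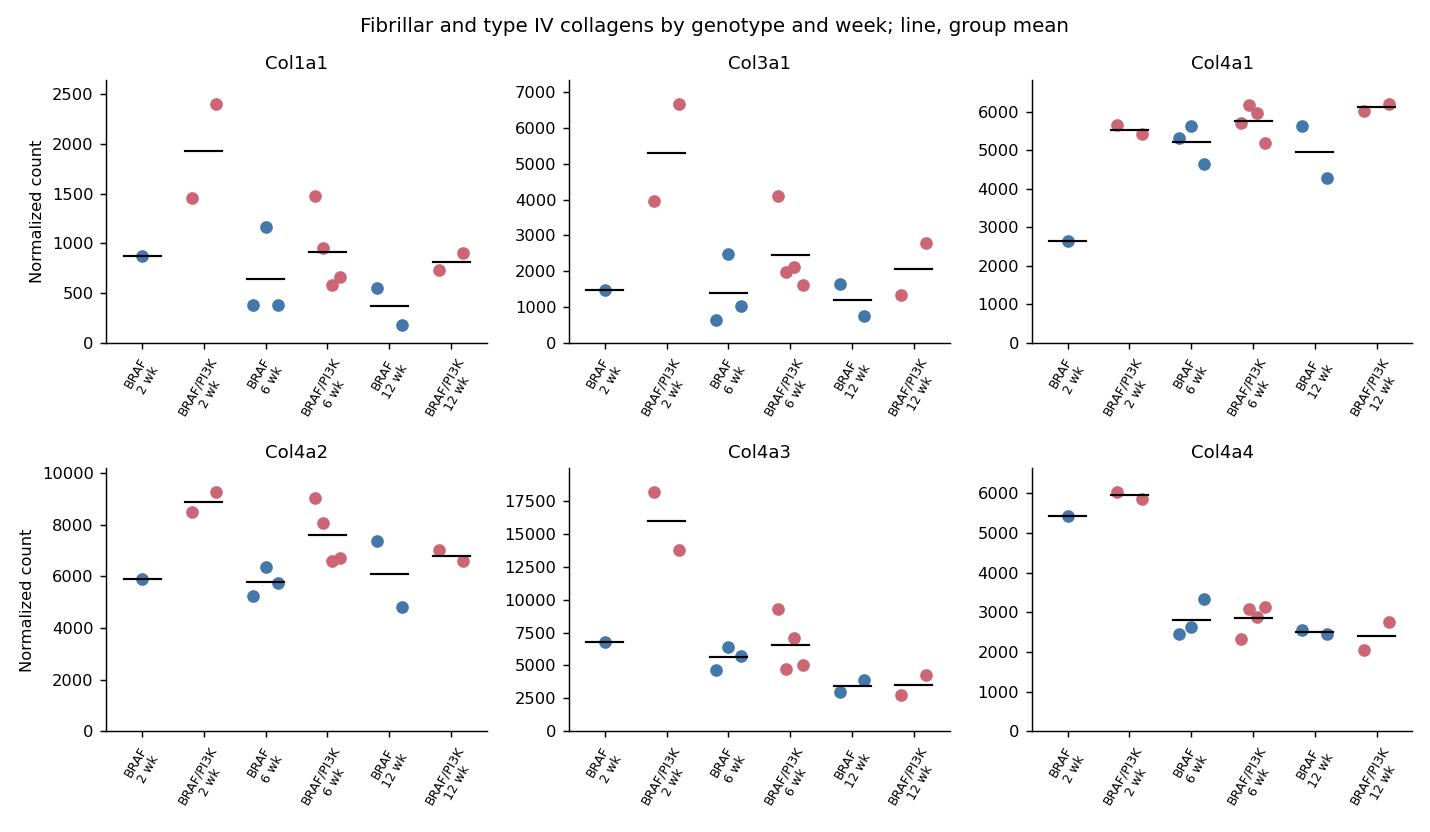
Normalized counts of *Col1a1*, *Col3a1* and *Col4a1* to *Col4a4* in each BRAF and BRAF/PI3K library (points, axes from 0) by genotype and week, with group means (lines). *Col4a4* lies at 5437 or more in the 3 libraries at 2 weeks and at 3335 or less in the others, and *Col4a1* is lowest in the BRAF library at 2 weeks.

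Among the other collagens, *Col17a1*, the transmembrane collagen of epithelial hemidesmosomes, had 12.2 at 2 weeks, 10.003, 11.1 and 51.5 at 6 weeks and 19 and 5.24 at 12 weeks in BRAF libraries. In BRAF/PI3K libraries it had 101 and 154 at 2 weeks, 30.3, 44.7, 34.7 and 34 at 6 weeks and 14.2 and 47.1 at 12 weeks. The BRAF/PI3K values at 2 weeks were the highest, and at 6 weeks the genotypes overlapped through 1 BRAF library. Its log2 fold change was 1.62 ± 0.55 (unadjusted p = 0.00932, adjusted p = 0.52), with an exact permutation p of 0.0143. The microfibrillar chain *Col6a3* had 966 at 2 weeks, 552, 2049 and 1302 at 6 weeks and 993 and 248 at 12 weeks in BRAF and 9652 and 5782 at 2 weeks, 3919, 1108, 1232 and 901 at 6 weeks and 359 and 766 at 12 weeks in BRAF/PI3K libraries, with pooled values of 1.03 ± 0.68 (unadjusted p = 0.151, adjusted p = 0.775) on the log2 scale. Its highest values were again those of BRAF/PI3K at 2 weeks, but at 12 weeks they lay within the range of BRAF. *Col18a1*, the source of endostatin, was at 345 ± 119 (SD, n = 8) in BRAF/PI3K and 598 ± 407 (SD, n = 6) in BRAF libraries, with a log2 fold change of -0.61 ± 0.38 (unadjusted p = 0.124, adjusted p = 0.757).

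Of the other collagens with a mean of at least 100, the type VI chains *Col6a1* and *Col6a2* were at 1100.1 ± 669.5 (SD, n = 8) and 1317 ± 1196 (SD, n = 8) in BRAF/PI3K and at 781 ± 409 (SD, n = 6) and 631 ± 308 (SD, n = 6) in BRAF libraries. Both were highest in the BRAF/PI3K libraries at 2 weeks, with 1566 and 2532 for *Col6a1* and 3317 and 2937 for *Col6a2*. *Col12a1*, a fibril-associated collagen, had 1862 at 2 weeks, 811, 1002 and 1116 at 6 weeks and 591 and 161 at 12 weeks in BRAF and 3885 and 1618 at 2 weeks, 1749, 490.5, 569 and 907 at 6 weeks and 253 and 459.9 at 12 weeks in BRAF/PI3K libraries, with the lowest values of each genotype at 12 weeks. *Col15a1* went the other way between weeks in BRAF/PI3K libraries, with 174 and 108 at 2 weeks, 199, 611, 492 and 213 at 6 weeks and 1745 and 869 at 12 weeks, while BRAF libraries had 804 at 2 weeks, 456, 221 and 673 at 6 weeks and 732 and 443 at 12 weeks. The transmembrane collagens *Col23a1* and *Col13a1* were at 809 ± 707 (SD, n = 8) and 149 ± 126 (SD, n = 8) in BRAF/PI3K and at 680.1 ± 309 (SD, n = 6) and 125 ± 101 (SD, n = 6) in BRAF libraries.

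*Col8a1*, a short-chain collagen of vessel walls, was at 324 ± 215 (SD, n = 8) in BRAF/PI3K and 282 ± 175 (SD, n = 6) in BRAF libraries, *Col14a1* at 130.2 ± 99.994 (SD, n = 8) and 150.4 ± 96.9 (SD, n = 6), *Col27a1* at 225 ± 186 (SD, n = 8) and 173 ± 79.3 (SD, n = 6), and *Col6a5* at 102 ± 126 (SD, n = 8) and 131 ± 87.3 (SD, n = 6). All 4 had overlapping genotypes and SDs larger than the difference of their means. The 14 other collagens that passed with a mean under 100, *Col17a1* among them, had means of 12.6 to 88.4 normalized counts.

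**Figure D3:**
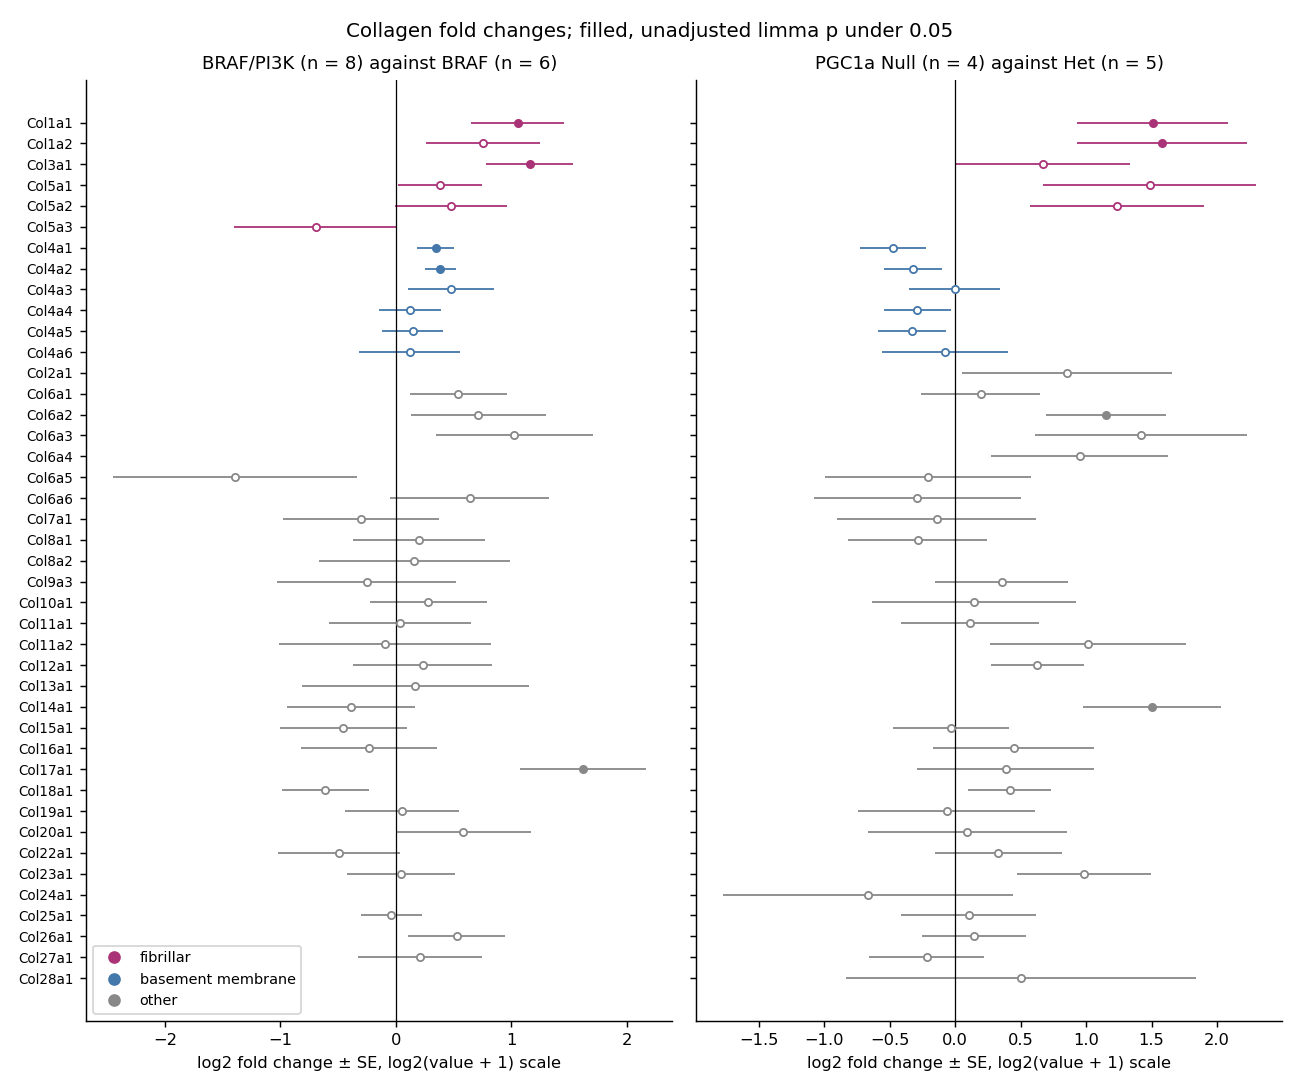
Log2 fold change ± SE (limma, log2 of the normalized count + 1) of each collagen tested, BRAF/PI3K against BRAF with weeks pooled (left) and PGC1α Null against Het (right), in 3 colors by family. Filled points have an unadjusted p under 0.05: 5 at left, from 0.35 (*Col4a1*) to 1.62 (*Col17a1*), and 4 at right, all above 0.

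Within weeks, the comparisons came from a single fit over all 6 genotype-by-week groups. At 2 weeks the single BRAF library has no spread of its own, so that errors and p-values assume that it varied like the other groups, and its sex label differs from that of both BRAF/PI3K libraries. There 0 of 38 collagens were called (0.0171% of all genes), and 7 had an unadjusted p under 0.05 (13.5% of all genes). Of these 7, *Col4a1* had the smallest adjusted p, with a log2 fold change of 1.07 ± 0.28 (unadjusted p = 0.00245, adjusted p = 0.144). *Col4a3* had 1.22 ± 0.43 (unadjusted p = 0.0159, adjusted p = 0.249) and *Col3a1* 1.79 ± 0.79 (unadjusted p = 0.0428, adjusted p = 0.353). *Col17a1* was at 3.26 ± 1.10, *Col6a3* at 2.95 ± 1.00 and *Col5a1* at 1.96 ± 0.70, with adjusted p of 0.222, 0.224 and 0.247. The one collagen lower in BRAF/PI3K was *Col15a1*, of vascular and other basement membrane zones, at -2.54 ± 0.81 (unadjusted p = 0.00823, adjusted p = 0.203). *Col1a1* had 1.11 ± 0.80 (unadjusted p = 0.193, adjusted p = 0.585). In the same contrast all 18 endothelial markers were higher (median log2 fold change 3.22), as were 15 of 16 fibroblast and mural cell markers (median 1.23) and 10 of 11 macrophage markers (median 2.18), and all 11 AT2 markers were lower (median -2.32). At an unadjusted p under 0.05 stood 16, 3, 3 and 10 of them, and their part in the collagen values was not tested.

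At 6 weeks, with 4 against 3 libraries, 0 of 38 collagens were called (0.0228% of all genes) and 1 had an unadjusted p under 0.05 (4.24% of all genes), *Col20a1*, with 16.4, 44.4, 64 and 173 in BRAF/PI3K and 8.32, 25.5 and 16.2 in BRAF libraries and a log2 fold change of 1.76 ± 0.76 (unadjusted p = 0.0392, adjusted p = 1.00). Its ranges overlapped, and the exact permutation p was 0.114, where the smallest possible p is 0.0286. *Col3a1* was at 0.96 ± 0.49 (unadjusted p = 0.0764, adjusted p = 1.00), *Col1a1* at 0.63 ± 0.50 (unadjusted p = 0.23, adjusted p = 1.00), *Col4a1* at 0.15 ± 0.18 (unadjusted p = 0.411, adjusted p = 1.00) and *Col4a3* at 0.18 ± 0.27 (unadjusted p = 0.527, adjusted p = 1.00). These values moved with single libraries: *Col3a1* was at 0.51 without BRAF replicate 1 and 1.50 without BRAF replicate 2, *Col1a1* at 0.36 and 1.17 without the same libraries and 0.37 without BRAF replicate 3 or BRAF/PI3K replicate 1, and *Col4a1* at 0.069 without BRAF replicate 3 and 0.21 without BRAF replicate 2. The genotypes did not overlap for 2 collagens, *Col4a2*, which was higher in BRAF/PI3K, and *Col27a1*, a fibrillar-type collagen of cartilage, which was lower, and 5.22% of all genes did not overlap. The family medians were 0.23 for fibrillar, 0.16 for basement membrane and 0.0727 for other collagens, and without BRAF/PI3K replicate 1, the library rich in endothelial and fibroblast markers, they were -0.0699, 0.106 and 0.00945. With all 6 week libraries, 17 of 18 endothelial (median 0.23), 12 of 16 fibroblast and mural cell (median 0.24) and 9 of 11 macrophage markers (median 0.36) were higher. All 11 AT2 markers were lower (median -0.44). Their part in the collagen values was not tested.

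At 12 weeks, with 2 against 2 libraries, 0 of 38 were called (0.0114% of all genes) and 1 had an unadjusted p under 0.05 (3.76% of all genes). This was *Col6a5*, a type VI chain, listed at 0 in BRAF/PI3K replicate 1 and at 23.4 in replicate 2, against 146 and 119.8 in BRAF libraries. The fitted log2 fold change of -4.75 ± 1.45 (adjusted p = 1.00) depends on the pseudocount, and was -2.45 without replicate 1. *Col1a1* was at 1.37 ± 0.66 (unadjusted p = 0.0587, adjusted p = 1.00), *Col3a1* at 0.80 ± 0.65 (unadjusted p = 0.24, adjusted p = 1.00), *Col4a1* at 0.32 ± 0.23 (unadjusted p = 0.191, adjusted p = 1.00) and *Col4a3* at 0.0101 ± 0.35. Without replicate 1 and without replicate 2 of BRAF/PI3K, the libraries whose sex labels were not met, *Col1a1* was at 1.52 and 1.21. Without BRAF replicate 1 it was at 2.19 and without BRAF replicate 2 at 0.548, so that its size moved with single BRAF libraries. *Col3a1* was at 1.37 and 0.229, and *Col4a1* at 0.513 and 0.121, without the same BRAF libraries, and *Col3a1* at 1.33 and 0.273 without BRAF/PI3K replicate 1 and 2. Of the fibroblast and mural cell markers 13 of 16 were lower in BRAF/PI3K at 12 weeks (median log2 fold change -0.88), while 14 of 18 endothelial (median 0.41) and 10 of 11 macrophage markers (median 0.98) were higher, each with 1 at an unadjusted p under 0.05, and their part in the collagen values was not tested.

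Over time, 6 weeks were compared with 2 weeks with the genotypes averaged, and at 2 weeks BRAF is a single library. That library was low for *Col4a1*, at 2641. BRAF/PI3K libraries had 5647 and 5416 of it at 2 weeks and 5720, 6182, 5957 and 5196 at 6 weeks. On average the α3 to α6 chains of type IV collagen had lower fitted values at 6 than at 2 weeks. The α1 chain had a higher one, through that BRAF library. None of these passed the adjusted threshold: 0 of 38 collagens were called (0.0399% of all genes) and 8 had an unadjusted p under 0.05 (10.4% of all genes), 5 of them type IV chains. *Col4a4* had a log2 fold change of -1.02 ± 0.19 (unadjusted p = 1.68e-04, adjusted p = 0.0974), the smallest adjusted p of any collagen in any comparison. It passed 0.05 with all genes of any count tested (adjusted p = 0.0436) or without BRAF/PI3K replicate 1 at 6 weeks (adjusted p = 0.037). *Col4a3* had -0.81 ± 0.26 (unadjusted p = 0.00796, adjusted p = 0.312) and *Col4a5* -0.82 ± 0.26 (unadjusted p = 0.00859, adjusted p = 0.319), and *Col4a6* was at -1.30 ± 0.54 (adjusted p = 0.439). *Col4a1* was at 0.52 ± 0.17 (unadjusted p = 0.00874, adjusted p = 0.322), its value of 2641 in the single BRAF library at 2 weeks being the lowest. The other 3 were *Col12a1* (-1.28 ± 0.50), a fibril-associated collagen, *Col6a2* (-1.31 ± 0.54) and *Col9a3* (-2.13 ± 0.94), with adjusted p of 0.404 to 0.463. *Col1a1* was at -0.89 ± 0.47 (unadjusted p = 0.0842, adjusted p = 0.569) and *Col3a1* at -0.75 ± 0.47 (unadjusted p = 0.134, adjusted p = 0.64). Of the 9 AT1 markers 8 were lower at 6 weeks, 7 at an unadjusted p under 0.05, and all 11 AT2 markers were higher, and their part in the type IV values was not tested.

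From 6 to 12 weeks 0 of 38 were called (0.0114% of all genes) and 5 had an unadjusted p under 0.05 (5.99% of all genes). *Col27a1* had -1.48 ± 0.34 (unadjusted p = 9.44e-04, adjusted p = 0.693), *Col4a3* -0.78 ± 0.22 (unadjusted p = 0.00431, adjusted p = 0.83), *Col12a1* -1.45 ± 0.43 (unadjusted p = 0.00574, adjusted p = 0.83) and *Col6a3* -1.35 ± 0.51 (unadjusted p = 0.0218, adjusted p = 0.83). *Col15a1* was the one that was higher at 12 weeks, 1.18 ± 0.41 (unadjusted p = 0.0148, adjusted p = 0.83). *Col1a1* was at -0.44 ± 0.41, *Col3a1* at -0.17 ± 0.41 and *Col4a1* at 0.00576 ± 0.14, with adjusted p from 0.898 to 0.999. Single BRAF libraries moved these values: *Col1a1* was at -0.85 without replicate 1 and -0.0337 without replicate 2 at 12 weeks and at -0.176 without replicate 2 at 6 weeks, and *Col6a3* at -0.85 without replicate 2 at 12 weeks. Of the fibroblast and mural cell markers 12 of 16 were lower at 12 weeks (median log2 fold change -1.09, 6 at an unadjusted p under 0.05), as were 16 of 18 endothelial markers (median -0.97), and 10 of 11 macrophage markers were higher (median 1.22, 6 at an unadjusted p under 0.05). The part of these cells in the collagen values was not tested, and the lower virus dose of the 12 week mice cannot be told apart from the week.

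Whether the PI3Kα effect differed between weeks was tested as an interaction. That of 6 and 2 weeks takes the single BRAF library at 2 weeks as a whole group. Its sex label also differs from that of both BRAF/PI3K libraries of that week. *Col11a1* had 42.7 in this BRAF library and 3.83 and 10.95 in those BRAF/PI3K libraries, and *Col19a1* had 28.8, 7.09 and 3.97. At such low counts their differences lean on 1 library. Between 6 and 2 weeks 0 of 38 collagens were called (0% of all genes), and 9 had an unadjusted p under 0.05 (8.95% of all genes). The smallest adjusted p was that of *Col4a1*, whose PI3Kα effect differed by -0.92 ± 0.33 (unadjusted p = 0.0166, adjusted p = 0.466), while *Col4a3* was at -1.04 ± 0.51 (unadjusted p = 0.065, adjusted p = 0.58). Of the other 8, the difference was negative for *Col7a1*, the anchoring fibril collagen (-4.20 ± 1.55), *Col6a5* (-4.73 ± 2.09), *Col6a3* (-2.57 ± 1.18), *Col27a1* (-1.91 ± 0.79) and *Col5a1* (-1.85 ± 0.82). It was positive for *Col11a1* (3.68 ± 1.53), *Col19a1* (2.84 ± 1.26) and *Col15a1* (2.26 ± 0.95), and these 8 had adjusted p of 0.48 to 0.558. In the same contrast all 18 endothelial markers were negative (median -3.09, 11 at an unadjusted p under 0.05), as were 13 of 16 fibroblast and mural cell markers (median -1.23), and their part in the collagen values was not tested. *Col1a1* was at -0.47 ± 0.95 and *Col3a1* at -0.84 ± 0.93. The value of *Col3a1* was -1.28 without BRAF replicate 1 and -0.295 without BRAF replicate 2 at 6 weeks, and -0.455 without BRAF/PI3K replicate 2 at 2 weeks. Between 12 and 6 weeks 0 were called (0% of all genes), and 1, *Col20a1*, had an unadjusted p under 0.05 (2.87% of all genes), at -2.88 ± 1.25 (unadjusted p = 0.0400, adjusted p = 1.000). *Col1a1*, *Col3a1*, *Col4a1* and *Col4a3* were at 0.74 ± 0.83, -0.16 ± 0.81, 0.17 ± 0.29 and -0.17 ± 0.45.

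The comparison of PGC1α Null with Het tumor cells asks what loss of the coactivator changes in BRAF V600E tumors. All 5 fibrillar chains tested had positive log2 fold changes (median 1.48) and all 6 basement membrane chains negative ones (median -0.31), while 20 of 28 other collagens were positive (median 0.26). Over all genes 51.1% were positive, with a median of 0.0106. By limma 0 of 39 collagens were called, as were 0% of all genes, and 4 had an unadjusted p under 0.05, where 3.83% of all genes did. For no collagen did the 4 Null and 5 Het values lie apart, which was so for 1.4% of all genes.

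*Col1a1* had 149.6, 59.5, 91 and 41.3 normalized counts in Null and 29.4, 73.9, 32.6, 8.17 and 19.8 in Het libraries. Het replicate 2 overlapped the Null range, and the other Het values lay below it. The log2 fold change was 1.51 ± 0.58 (unadjusted p = 0.0214, adjusted p = 0.998), with an exact permutation p of 0.0476. *Col1a2* had 109.9, 312, 38 and 146 in Null and 77.7, 40.1, 20.8, 13.7 and 94.3 in Het libraries, a log2 fold change of 1.58 ± 0.65 (unadjusted p = 0.0305, adjusted p = 0.998) with an exact permutation p of 0.103. *Col3a1* had 26.2, 231, 43.8 and 36 in Null and 87.2, 36.8, 44.9, 11.9 and 28.4 in Het libraries, at 0.67 ± 0.66 (unadjusted p = 0.329, adjusted p = 0.998), and without Null replicate 2, its highest value, the log2 fold change was -0.00479. *Col5a1* was at 26.7 ± 9.88 (SD, n = 4) in Null and 15.5 ± 22.2 (SD, n = 5) in Het libraries and *Col5a2* at 34.4 ± 21.5 (SD, n = 4) and 14.2 ± 8.64 (SD, n = 5), and both overlapped.

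Also higher in Null cells at an unadjusted p under 0.05 were *Col14a1*, a fibril-associated collagen, and *Col6a2*. *Col14a1* had 72.4, 147, 23.2 and 34.6 in Null and 18.8, 21.1, 14.8, 15.9 and 23.5 in Het libraries, where 1 Het value of 23.5 exceeded the lowest Null value. Its log2 fold change was 1.50 ± 0.53 (unadjusted p = 0.0136, adjusted p = 0.998), with an exact permutation p of 0.0159. *Col6a2* was at 90.4 ± 58.1 (SD, n = 4) in Null and 36.9 ± 16.4 (SD, n = 5) in Het libraries, at 1.15 ± 0.46 (unadjusted p = 0.0265, adjusted p = 0.998), with an exact permutation p of 0.0397. The other collagens with means of at least 100 here were *Col22a1*, a fibril-associated collagen, at 208 ± 86.7 (SD, n = 4) in Null and 179 ± 88.6 (SD, n = 5) in Het libraries, *Col18a1* at 176 ± 74.7 (SD, n = 4) and 125 ± 24.7 (SD, n = 5), and *Col15a1* at 116 ± 47.1 (SD, n = 4) and 127 ± 72.5 (SD, n = 5). Their groups overlapped.

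Of the basement membrane chains, *Col4a1* had 1303, 2035, 1599 and 889 in Null and 1739, 1825, 2471, 2104 and 1659 in Het libraries. Its lowest values were 3 Null libraries, and Null replicate 2 lay inside the Het range. The log2 fold change was -0.48 ± 0.25 (unadjusted p = 0.0778, adjusted p = 0.998), with an exact permutation p of 0.0952, and the fold change was -0.26 without Null replicate 4. *Col4a2* was at 1514 ± 357 (SD, n = 4) in Null and 1877 ± 334 (SD, n = 5) in Het libraries. *Col4a3* was at -0.00584 ± 0.35 (adjusted p = 0.998), and its direction turned with quantile normalization. *Col4a4*, *Col4a5* and *Col4a6* were at 310.2 ± 61.5 (SD, n = 4), 243 ± 81.7 (SD, n = 4) and 42.2 ± 16.7 (SD, n = 4) in Null and 385 ± 96 (SD, n = 5), 295 ± 43.3 (SD, n = 5) and 49.3 ± 34.2 (SD, n = 5) in Het libraries. The highest value of *Col4a3* was 1537 in Het replicate 1, where the other 8 libraries had at most 766.

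Markers of other cells differed between the same groups. The fibroblast and mural cell markers summed to 892 to 2649 in Null and 375 to 957 in Het libraries, and all 15 tested were higher in Null (median log2 fold change 1.08, 6 at an unadjusted p under 0.05). The endothelial markers summed to 2569 to 4125 and 783 to 1734, without overlap, and all 16 tested were higher (median 1.88, 14 at an unadjusted p under 0.05, where 3.83% of all genes were). Macrophage markers summed to 2039 to 11230.4 and 665 to 3935, lymphocyte markers to 331 to 689 and 168 to 410.5, and mesothelial markers to 101 to 614 and 49.6 to 135. The AT2 markers, at 411944 to 664121 and 536420 to 676352, and the AT1 markers, at 9861 to 15276 and 10734 to 16530, overlapped. The part of fibroblasts and endothelial cells in the collagen values was not tested.

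Genes that process collagen were described from lists by their roles. Of 18 genes of folding and modification in the endoplasmic reticulum, 12 of 18 had positive log2 fold changes in BRAF/PI3K against BRAF with weeks pooled (median 0.13) and 8 of 18 in Null against Het (median -0.0288). *Colgalt1*, which adds galactose to hydroxylysine, had 0.81 ± 0.18 (unadjusted p = 3.19e-04, adjusted p = 0.198) in the pooled comparison and the smallest p of any gene in these lists there. *P4ha1*, a prolyl hydroxylase subunit, was at -0.41 ± 0.19 (unadjusted p = 0.0416, adjusted p = 0.711). In Null cells *Crtap*, of the collagen prolyl hydroxylation complex, was at -1.02 ± 0.42 (unadjusted p = 0.0296, adjusted p = 0.998). Of the genes of propeptide cleavage and cross-linking, 10 of 13 were positive in BRAF/PI3K (median 0.50), and 9 of 10 in Null cells (median 0.51). The propeptidases *Adamts2* and *Tll1* were at 0.61 ± 0.24 (unadjusted p = 0.0221, adjusted p = 0.657) and 0.91 ± 0.42 (unadjusted p = 0.047, adjusted p = 0.725), and the lysyl oxidase *Loxl4* at 3.00 ± 1.07 (unadjusted p = 0.0126, adjusted p = 0.565), while in Null cells *Loxl3* was at 1.65 ± 0.53 (unadjusted p = 0.00847, adjusted p = 0.889).

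Of the genes of collagen degradation, 9 of 10 were positive in BRAF/PI3K (median 0.32) and 6 of 10 in Null cells (median 0.27), where the gelatinase *Mmp2* was at 2.30 ± 0.85 (unadjusted p = 0.0178, adjusted p = 0.998), the protease *Ctsk* at 1.33 ± 0.53 (unadjusted p = 0.026, adjusted p = 0.998) and the inhibitor *Timp4* at 1.50 ± 0.67 (unadjusted p = 0.0442, adjusted p = 0.998). Of the 9 collagen receptors, 5 of 9 were positive in BRAF/PI3K (median 0.31) and 3 of 9 in Null cells (median -0.23), where *Ddr2*, a receptor tyrosine kinase for fibrillar collagen, was at 1.58 ± 0.44 (unadjusted p = 0.00307, adjusted p = 0.672). None of the genes in the 4 lists passed an adjusted p of 0.05 in these 2 comparisons, and 5 of 50 tested had an unadjusted p under 0.05 in the first (6.83% of all genes) and 6 of 47 in the second (3.83% of all genes).

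How collagens varied together was measured for 7 pairs of genes over the 14 libraries, within BRAF (6) and BRAF/PI3K (8), and over the 9 PGC1α libraries, 28 relations in all, with two-sided permutation p adjusted over them. The fibrillar genes *Col1a1* and *Col3a1* varied together, with Pearson r = 0.91 (permutation p = 3.00e-05, adjusted p = 8.40e-04) and Spearman rho = 0.88 (permutation p = 6.00e-05, adjusted p = 0.00168). Without the 2 libraries farthest from the *Col1a1* median r was 0.89. Within BRAF r was 0.85 (exact permutation p = 0.0347, adjusted p = 0.0884) and within BRAF/PI3K 0.92 (exact permutation p = 0.00181, adjusted p = 0.00845). *Col1a1* and *Col1a2*, chains of one molecule, had Pearson r = 0.86 (permutation p = 1.40e-04, adjusted p = 0.00149) and Spearman rho = 0.78 (permutation p = 0.00137, adjusted p = 0.0128), and r = 0.69 without 2 libraries. Within BRAF r was 0.88 (exact permutation p = 0.0208, adjusted p = 0.0583) and fell to 0.35 without 2 libraries, and within BRAF/PI3K it was 0.87 (exact permutation p = 0.00608, adjusted p = 0.0213). With *Dcn*, the fibroblast gene decorin, *Col1a1* had Pearson r = 0.40 (permutation p = 0.16, adjusted p = 0.236) and Spearman rho = 0.37 (permutation p = 0.200, adjusted p = 0.329), and r = 0.12 without 2 libraries. *Dcn* did not follow its list: its highest value, 1251, was in BRAF/PI3K replicate 1 at 12 weeks, where the 16 fibroblast and mural cell markers had their lowest sum, 3868. With the sum of these markers, a relation added after the data were seen, *Col1a1* had r = 0.703 (permutation p = 0.00544, not adjusted), Spearman rho = 0.635 (permutation p = 0.0168) and r = 0.459 without 2 libraries. Within BRAF that r was 0.805 (exact permutation p = 0.0764) and within BRAF/PI3K 0.816 (exact permutation p = 0.0145). Without 2 libraries these were 0.462 and 0.863. Over the 9 PGC1α libraries r with the sum was 0.475 (exact permutation p = 0.194), and 0.137 without 2 libraries. Over the single markers in the 14 libraries r ran from -0.28 (*Lum*) to 0.74 (*Pdgfrb*) with a median of 0.52, and 12 of 16 lay above *Dcn*.

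The head-to-head neighbours *Col4a1* and *Col4a2*, whose start region is printed with the sequences, had Pearson r = 0.46 (permutation p = 0.102, adjusted p = 0.19) and Spearman rho = 0.50 (permutation p = 0.0704, adjusted p = 0.152) over the 14 libraries, with r = 0.35 without 2 libraries, 0.27 within BRAF and -0.28 within BRAF/PI3K. In the PGC1α cohort they had Pearson r = 0.91 (exact permutation p = 2.54e-04, adjusted p = 0.00177) and Spearman rho = 0.85 (exact permutation p = 0.00607, adjusted p = 0.034), and r = 0.86 without 2 libraries. *Col4a3* and *Col4a4* had Pearson r = 0.76 (permutation p = 0.00265, adjusted p = 0.0106) and Spearman rho = 0.62 (permutation p = 0.0203, adjusted p = 0.0947) over the 14 libraries, and r = 0.39 without the 2 BRAF/PI3K libraries at 2 weeks. Within BRAF, which holds neither library, r was 0.63 (exact permutation p = 0.157, adjusted p = 0.236), and within BRAF/PI3K it was 0.82 (exact permutation p = 0.0138, adjusted p = 0.0429) and 0.24 without those 2 libraries. *Col4a3* and the AT1 gene *Hopx* had Pearson r = 0.85 (permutation p = 1.60e-04, adjusted p = 0.00149) and Spearman rho = 0.81 (permutation p = 7.80e-04, adjusted p = 0.0109), r = 0.66 without those 2 libraries, 0.53 within BRAF and 0.95 within BRAF/PI3K, and r = -0.0841 over the 9 PGC1α libraries. *Col4a1* and the endothelial gene *Pecam1* had Pearson r = 0.52 (permutation p = 0.0484, adjusted p = 0.113) and Spearman rho = 0.30 (permutation p = 0.295, adjusted p = 0.362), with r = -0.15 without 2 libraries. Within BRAF r was 0.66 (exact permutation p = 0.0917, adjusted p = 0.183) and -0.20 without 2 libraries. Within BRAF/PI3K it was -0.25 (exact permutation p = 0.541, adjusted p = 0.583) and -0.82 without 2 libraries. The genes were measured in the same libraries and share their cell content.

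In the PGC1α cohort, the relations of *Col1a1* with *Col1a2* (r = 0.43), *Col3a1* (r = 0.34) and *Dcn* (r = 0.55), and of *Col4a3* with *Col4a4* (r = 0.53), had adjusted exact permutation p of 0.218 to 0.477. *Col4a1* and *Pecam1* had r = -0.59 there (exact permutation p = 0.0884, adjusted p = 0.183).

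**Figure D4:**
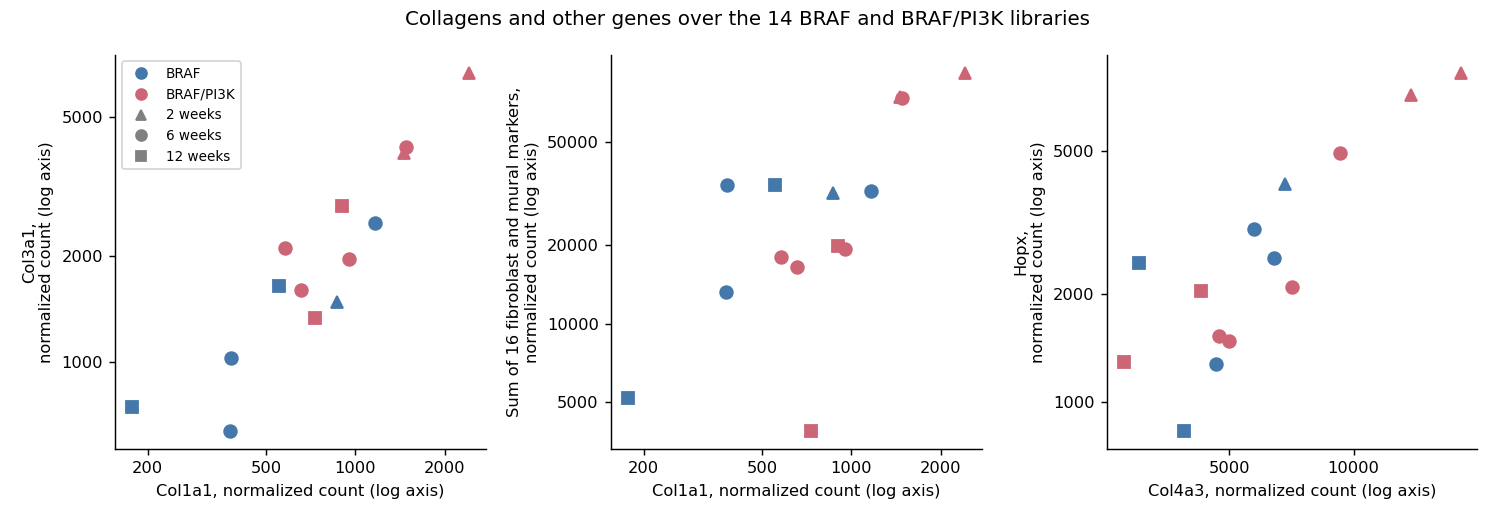
Normalized counts of *Col1a1* against *Col3a1* and the sum of 16 fibroblast and mural cell markers, and of *Col4a3* against *Hopx*, in the 14 BRAF and BRAF/PI3K libraries (log axes; color, genotype; shape, week). *Col1a1* and *Col3a1* lie along one line (r = 0.91), the marker sum is highest in the 3 libraries with the highest *Col1a1* (r = 0.703), and the BRAF/PI3K libraries at 2 weeks are highest for *Col4a3* and *Hopx*.

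The 5 genes most like a collagen by Pearson r of log2 values over 14 libraries, among 17558 genes, were for *Col1a1* *Col3a1* (0.91), *Diaph2* (0.90), *Itgb3* (0.90), *Upk1b* (0.90) and *Trim16* (0.89). For *Col4a1* they were *Abca13* (0.91), *Gm29397* (0.88), *Mdk* (0.86), *Tmem41a* (0.86) and *Meox1* (0.86), and for *Col4a3* *Cacnb2* (0.93), *Steap3* (0.92), *2010111I01Rik* (0.92), *Ilk* (0.92) and *Pi15* (0.92). Over the 9 PGC1α libraries and 17424 genes they were for *Col1a1* *Tmc3* (0.97), *Gm15089* (0.94), *Mri1* (0.90), *Olfr700* (0.89) and *Klhl6* (0.89). For *Col4a1* they included *Ndfip2* (0.98), *Mtpap* (0.97), *Rtn4* (0.97) and *Gpd1* (0.96), and for *Col4a3* they were *Usf2* (0.92), *Mapk8ip2* (0.92), *Hdac7* (0.91), *Rbm43* (0.91) and *Kdelc1* (0.90). *Col3a1* was the one collagen among these names, which were picked as the highest of many and carry no test.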

How the data were processed

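RNA of sorted tumor cells was sequenced by the authors in 50 single-end cycles on a HiSeq instrument after an Ovation Ultralow library kit. The submitters' processing notes name FastQC, Salmon, DESeq2 and GRCm38, with versions and annotation not given in the sources used here. The deposited values are a signal, estimated counts that the authors divided by DESeq2 size factors in 2 separate tables, so that a level depends on gene length and on the other libraries of its table. They are not whole reads, and depth in reads is unknown. The authors' own comparison tables (base means, fold changes with errors, Wald statistics and p-values) were not used. Tests were run on genes whose values averaged 10 or more, by limma 3.58.1 (R 4.3.3) with an intensity trend on log2(value + 1), which understates changes of low genes, with Benjamini-Hochberg adjustment over all genes tested and a threshold of 0.05. Pooled genotypes, and Null against Het, were compared without covariates, and all weekly, time and interaction contrasts came from 1 fit of 6 group means, so that these comparisons share libraries. Single values were compared by two-sided exact permutation tests, and correlations by permutation (exact up to 9 libraries, otherwise 100000 resamples) in Python 3.11.15 with scipy 1.17.1, pandas 2.3.3 and numpy 2.4.6. The code was tested on simulated data.

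The collagens, the lists of collagen processing genes and the cell type markers were chosen with earlier results of these data known. Collagens of a mean of at least 100 were described in detail, fold changes are given for *Col1a1*, *Col3a1*, *Col4a1*, *Col4a3* and each collagen with an unadjusted p under 0.05, and the 5 genes most like *Col1a1*, *Col4a1* and *Col4a3* are named, except 1 that is not reported here. Alternatives were a pseudocount of 4, a mean over 40, all genes with any count, quantile normalization, sex as a factor, week as a factor, no trend, a replicate block and leaving out each library. Leaving out the 2 week libraries or both BRAF/PI3K libraries at 12 weeks, and crossed replicate numbers at 12 weeks, were chosen after seeing the data. Figures were drawn with matplotlib 3.10.9.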

Additional observations from a re-analysis of the deposited data

Results flagged for a closer look

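In BRAF/PI3K libraries at 6 weeks, replicate 1 stood far above the other 3 for 3 type VI collagens, by its gap to the nearest library relative to the group's range. *Col6a1* was at 1180 normalized counts to 3 significant digits there, *Col6a2* at 1650 and *Col6a5* at 358. Of the 38 sets of a collagen with a mean of at least 100 and a group of 4 to 10 libraries that were examined, 3 were set apart in this way, and chance alone gives about 1 in 20 for independent sets. All 3 came from BRAF/PI3K replicate 1 at 6 weeks. The share of all genes set apart in that library was not counted, so that the 3 cannot be weighed against chance. This library also had the largest sum of endothelial markers (315865), and the part of other cells in its type VI values was not tested.

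Of the collagens with a mean of at least 100, 3 had every BRAF/PI3K library on one side of every BRAF library in one week and on the other side in another week. They were 3 of 22 collagens, and the same was so for 10.6% of all 11546 genes with such a mean, in groups of 1 to 4 libraries. *Col6a5* differed by 3.18 on the log2 scale at 2 weeks and by -4.75 at 12 weeks, and *Col15a1* by -2.54 at 2 weeks and 1.11 at 12 weeks. The difference between 2 and 12 weeks was not tested. *Col27a1* differed by 1.39 at 2 weeks and -0.52 at 6 weeks, and the interaction between these weeks was -1.91 ± 0.79 (unadjusted p = 0.031, adjusted p = 0.524) by limma. The 2 week values rest on 1 BRAF library.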

How the results depend on the processing

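No collagen passed an adjusted p of 0.05 in limma under 181 of 183 combinations of a comparison and an alternative. The exceptions were both in 6 against 2 weeks, where 1 collagen, *Col4a4*, was called with all genes with any count, and leaving out each library gave 0 to 1, the call being made without BRAF/PI3K replicate 1 at 6 weeks. All 183 family medians under the alternatives kept their direction or differed by less than the replicate spread, and some changed sign within it. Leaving out each library gave 0.402 to 0.796 for fibrillar (0.61 as reported) and -0.0602 to 0.28 for other collagens (0.11) with weeks pooled. At 6 weeks it gave -0.0699 to 0.48 for fibrillar (0.23) and -0.244 to 0.211 for other collagens (0.0727). The number of collagens at an unadjusted p under 0.05 moved by over 1.5 times in 50 of the 183, ranging from 3 to 9 with weeks pooled (5 as reported), 3 to 11 at 2 weeks (7), 0 to 4 at 6 weeks (1), 0 to 4 at 12 weeks (1), 5 to 12 for 6 against 2 weeks (8), 3 to 10 for 12 against 6 weeks (5), 2 to 10 (9) and 0 to 3 (1) for their interactions and 2 to 6 for Null against Het (4). Of 1347 values of single collagens, 29 changed sign, none of them past an adjusted p of 0.05. With sex as a factor, *Col4a1* from 6 to 12 weeks was -0.0156 and *Col3a1* in the interaction of 12 and 6 weeks 0.0507. With quantile normalization *Col4a3* in Null against Het was 0.0484. Leaving out each library gave ranges for *Col4a3* of -0.0112 to 0.312 at 6 weeks, -0.299 to 0.319 at 12 weeks, -0.475 to 0.143 in the interaction of 12 and 6 weeks and -0.187 to 0.309 in Null against Het. For *Col3a1* they were -0.454 to 0.117 from 6 to 12 weeks, -0.728 to 0.415 in that interaction and -0.00479 to 1.03 in Null against Het. For *Col4a1* they were -0.0923 to 0.104 from 6 to 12 weeks and -0.0281 to 0.364 in the interaction, and for *Col1a1* -0.838 to 0.0607 in the interaction of 6 and 2 weeks and -0.0842 to 1.55 in that of 12 and 6 weeks. The cause of these changes was not tested. Under quantile normalization the correlation of *Col4a1* with *Pecam1* was 0.296 over 14 libraries (permutation p = 0.314), -0.906 within BRAF/PI3K (exact permutation p = 0.0057) and -0.675 in the PGC1α cohort (exact permutation p = 0.0331), with p not adjusted over the 28 relations. Without that normalization these were 0.52, -0.25 and -0.59, with adjusted permutation p of 0.113, 0.583 and 0.183. With the marker sum in place of *Dcn*, chosen after seeing the data, the correlation with *Col1a1* was 0.703 over 14 libraries (permutation p = 0.00544) and 0.816 within BRAF/PI3K (exact permutation p = 0.0145).

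For libraries with the same replicate number, the correlation of their deviations was -0.284 to -0.014 at 6 weeks, -0.146 at 12 weeks and -0.467 to 0.211 in the PGC1α cohort. Deviations were taken from group means of few libraries, which ties them to each other. At 12 weeks, with 2 libraries per group, they mirror each other, and crossed numbers gave 0.146. These values therefore cannot show whether replicate numbers mark pairs. With the replicate block 0 collagens were called in each of the 7 comparisons where it could be fitted, and *Col1a1* and *Col3a1* in the interaction of 6 and 2 weeks were 0.0147 and -0.285. With the 12 week numbers crossed 0 were called. Over all genes the number called was 3 to 9 with weeks pooled, 0 to 268 at 2, 0 to 12 at 6 and 0 to 16 at 12 weeks, 0 to 106 for 6 against 2 and 0 to 7 for 12 against 6 weeks, 0 to 44 and 0 to 2 for the interactions and 0 for Null against Het. The counts of 268 and 106 arose without BRAF/PI3K replicate 1 at 6 weeks, against 3 and 7 with it, and the 9 with weeks pooled arose without BRAF/PI3K replicate 1 at 12 weeks. The comparison at 2 weeks could not be made without its single BRAF library. Depth in reads is unknown, so that no counting interval could be given for low collagens.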
